A study of Mus musculus with 14 samples.

Results

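Replication-dependent histone genes were followed in RNA sequencing libraries from the thymus of mice in which the T-cell oncogene Lmo2 was expressed from different cells of origin. The members were every gene of the count table whose name begins with Hist1h, Hist2h, Hist3h or Hist4h, which gave 71 of 46946 genes. They comprised 6 linker histone H1 genes, 20 H2A, 20 H2B, 12 H3 and 13 H4 genes. Of these, 56 lie on chromosome 13 (Hist1), 11 on chromosome 3 (Hist2), 3 on chromosome 11 (Hist3) and 1 on chromosome 6 (Hist4). The Hist1 member Hist1h2al, a processed pseudogene, lies apart from the others of chromosome 13. Hist1h2aj and Hist3h2bb-ps are also annotated as pseudogenes.

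The 14 libraries formed 5 groups. In Sca1-Lmo2 mice (4 libraries, ages of 7 or 8 months) a Lmo2 and TdTomato transgene was driven by the Sca1 promoter of stem and progenitor cells. In the 3 other models Lmo2 and eGFP at the Rosa26 locus were switched on by a Cre. These were Rosa26-Lmo2+Mb1-Cre (2 libraries, 20 months, Cre of early B cells), Rosa26-Lmo2+Aid-Cre (1 library, 22 months, Cre of germinal centre B cells) and Rosa26-Lmo2+Sca1-Cre (3 libraries, 9 months, Cre of haematopoietic stem cells, so that Lmo2 stays on in all their progeny). The wild-type (WT) controls were 4 libraries at 4 months with none of these alleles. All mice carried a C57BL/6;CBA background. Mice of the 4 models develop T-ALL, an acute leukaemia of T cells, and their libraries are called tumour libraries here. The labels name frozen thymus as the source, whereas the methods speak of blast cells for the models. Every tumour library came from an older mouse than the WT libraries, so age and tumour cannot be told apart. The labels do not say that libraries of a group came from separate animals, and p-values measure only the spread between these libraries.

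Replication-dependent histone genes supply the core and linker histones that package newly made DNA, and they are transcribed mainly in S phase. Their mRNA mostly ends in a short stem-loop rather than in a poly(A) tail. The stem-loop is bound by SLBP, and the 3′ end is cut by a complex that includes the U7 snRNP and the endonuclease CPSF3. NPAT activates their transcription at the histone locus body, and outside S phase the mRNA is rapidly degraded. Some members also give polyadenylated mRNA in cells that have left the cycle. The libraries were made with a kit that selects poly(A) RNA, so the counts of members reflect the mRNA level and also how much RNA without a tail entered a library.

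The stem-loops are shown because they decide how this mRNA ends and whether a tail is expected. A 16-base match to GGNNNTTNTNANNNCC was found on the sense strand of a GENCODE M21 transcript (GRCm38) in 46 of 71 members, against 3.5% of 56141 other protein-coding transcripts of a similar length range. The most frequent form, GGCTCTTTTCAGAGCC, was found in 26 members. Most gene models without a match end at the coding region, and no match says only that these letters are not in the listed transcript. In the sequences printed here, capitals mark the match, 5 bases stand on either side, and the sequence is that of the transcript, 5′ to 3′. They are the stem-loops of members described in the results. Hist1h1e lies on the minus strand at chr13:23621777-23621802, Hist1h3f on the plus strand at chr13:23544927-23544952, Hist1h2ag on the minus strand at chr13:22042478-22042503 and Hist1h4i on the minus strand at chr13:22040961-22040986. Hist1h1c lies on the plus strand at chr13:23739507-23739532, Hist3h2ba on the plus strand at chr11:58949344-58949369, Hist3h2a on the plus strand at chr11:58955167-58955192 and Hist4h4 on the minus strand at chr6:136803993-136804018.
Hist1h1e: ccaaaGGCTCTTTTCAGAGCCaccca
Hist1h3f: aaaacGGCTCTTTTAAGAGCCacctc
Hist1h2ag: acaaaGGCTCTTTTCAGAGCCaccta
Hist1h4i: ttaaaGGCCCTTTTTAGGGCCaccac
Hist1h1c: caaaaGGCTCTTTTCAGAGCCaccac
Hist3h2ba: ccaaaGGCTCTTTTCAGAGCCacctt
Hist3h2a: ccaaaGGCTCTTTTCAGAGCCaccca
Hist4h4: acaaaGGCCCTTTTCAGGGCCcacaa

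The same 16 bases stood in members that later differed in direction, since Hist1h1e, Hist1h2ag, Hist1h1c, Hist3h2ba and Hist3h2a share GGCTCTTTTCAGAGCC. What the table lists after the stem-loop differed. The listed gene went on for 27 bases in Hist1h1e, 365 in Hist1h3f, 23 in Hist1h2ag, 330 in Hist1h4i, 840 in Hist1h1c, 169 in Hist3h2ba, 1643 in Hist3h2a and 2445 in Hist4h4.

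Promoters are described because they show what the members of a class share in sequence outside the coding region. In RefSeq promoter windows (GRCm38.p6, 300 bases, 61 members matched), the TATA box letters TATAAA were found on either strand in 57.38% of members and in 15.57% of 26964 other genes. CCAAT was found in 85.25% of members and 40.96% of other genes, and it was in all matched H1, H2A, H2B and H3 members but in 3 of 12 H4 members. The octamer ATTTGCAT, bound by OCT1, was found in 22.95% of members and 1.92% of other genes. It was in 7 of 17 H2A and 7 of 16 H2B members and in none of the H1, H3 or H4 members. Capitals in the following 90 bases before the start mark ATTTGCAT and TATAAA, with Hist1h2bb on the plus strand at chr13:23746644-23746733 and Hist1h2bg on the plus strand at chr13:23571310-23571399.
Hist1h2bb: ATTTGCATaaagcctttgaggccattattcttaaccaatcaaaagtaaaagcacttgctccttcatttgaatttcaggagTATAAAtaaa
Hist1h2bg: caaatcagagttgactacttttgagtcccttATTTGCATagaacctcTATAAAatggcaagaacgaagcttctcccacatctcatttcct

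Total counts lay between 42985130 and 47667663 per library. Values are CPM, counts scaled to library size with the TMM method, and a gene was tested where it had at least 1 CPM in at least 3 libraries, which held for 66 of 71 members and 17087 genes in all. Hist2h2ab, Hist2h4, Hist3h2bb-ps and Hist1h1t did not reach that level, and Hist1h2aa had no count in any library. The test was edgeR's quasi-likelihood test on all libraries with Benjamini-Hochberg adjustment over the 17087 genes, and a call is an adjusted p under 0.05. In 35 members at least 50% of the 100-base stretches of the transcript also stand in another member, or a gene longer than 150 bases with at least 10% of the member's counts overlaps, and these were treated as uncertain because reads may be split or shared. Most of the other members share sequence too, and 9 members had no shared stretch of that length. Lmo2 had 10.2, 17.6, 10.4 and 12.2 CPM in Sca1-Lmo2, 3.96 and 6.99 CPM in Rosa26-Lmo2+Mb1-Cre, 22.2 CPM in Rosa26-Lmo2+Aid-Cre, 10.1, 5.83 and 8.35 CPM in Rosa26-Lmo2+Sca1-Cre, and 3.23, 1.63, 3.28 and 4.43 CPM in WT. The Rosa26-Lmo2+Mb1-Cre library with 3.96 CPM overlapped WT. The bulk libraries cannot tell fewer cells of a type from less RNA per cell. The T-cell markers summed to 3173 to 5727 CPM in Sca1-Lmo2, 3575 to 3976 CPM in Rosa26-Lmo2+Mb1-Cre, 4076 CPM in Rosa26-Lmo2+Aid-Cre, 2548 to 5770 CPM in Rosa26-Lmo2+Sca1-Cre and 7090 to 8164 CPM in WT, and all 10 T-cell markers were detected.

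Histone mRNA was higher in most tumour libraries than in WT. Summed over all 71 members, the level was 489, 288, 934 and 1263 CPM in Sca1-Lmo2, 769 and 1388 CPM in Rosa26-Lmo2+Mb1-Cre, 495 CPM in Rosa26-Lmo2+Aid-Cre, 701, 1690 and 837 CPM in Rosa26-Lmo2+Sca1-Cre, and 389, 375, 270 and 220 CPM in WT. Sca1-Lmo2 replicate 2 lay within the WT range, and the other 9 tumour libraries lay above it. The means were 743 ± 439 CPM (SD, n = 4) in Sca1-Lmo2, 1079 ± 437 (SD, n = 2) in Rosa26-Lmo2+Mb1-Cre, 1076 ± 536 (SD, n = 3) in Rosa26-Lmo2+Sca1-Cre and 314 ± 82.0 (SD, n = 4) in WT. These means were 2.37, 3.44 and 3.43 times the WT mean in Sca1-Lmo2, Rosa26-Lmo2+Mb1-Cre tumours and Rosa26-Lmo2+Sca1-Cre, and the single Rosa26-Lmo2+Aid-Cre library was at 1.58 times.

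**Figure D1:**
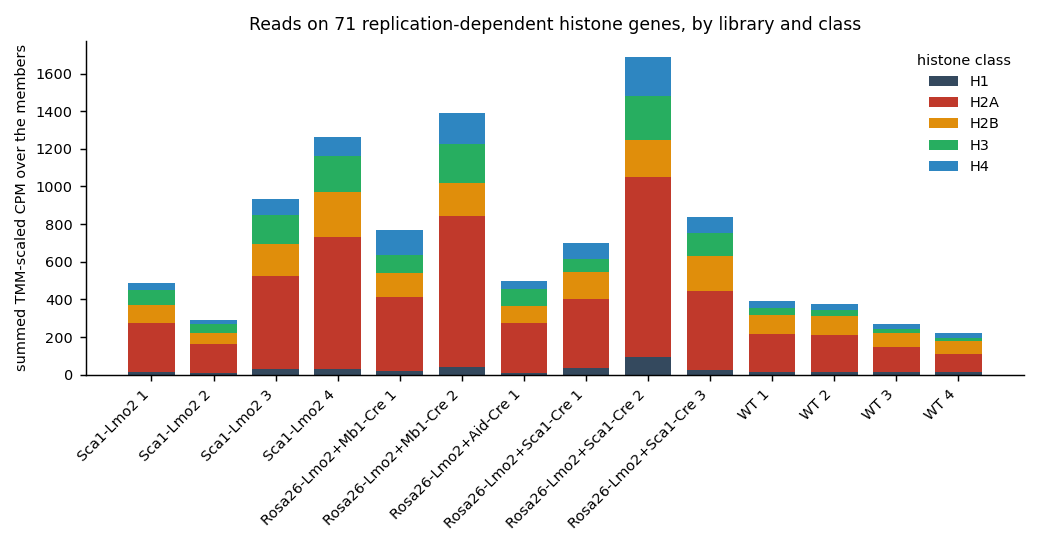
Summed TMM-scaled CPM of the members of each histone class as stacked bars, 1 bar per library and 1 colour per class. H2A is the widest band in every bar, and the Sca1-Lmo2 replicate 2 bar of 288 CPM ends within the range of the 4 WT bars, 220 to 389 CPM.

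The classes did not contribute equally. H3 genes, which encode the core histone that carries many of the known regulatory marks, summed to 77.9, 44.0, 155 and 192 CPM in Sca1-Lmo2, 94.3 and 211 CPM in Rosa26-Lmo2+Mb1-Cre, 90.6 CPM in Rosa26-Lmo2+Aid-Cre, 68.9, 234 and 122 CPM in Rosa26-Lmo2+Sca1-Cre, and 33.1, 28.0, 18.9 and 14.6 CPM in WT. No tumour library overlapped WT in the H3 sum. H3 means were 4.95, 6.45 and 5.99 times the WT mean in Sca1-Lmo2, Rosa26-Lmo2+Mb1-Cre tumours and Rosa26-Lmo2+Sca1-Cre. H1 genes summed to 15.5, 8.69, 28.5 and 31.6 CPM in Sca1-Lmo2, 20.7 and 43.6 CPM in Rosa26-Lmo2+Mb1-Cre, 10.2 CPM in Rosa26-Lmo2+Aid-Cre, 33.7, 94.5 and 26.7 CPM in Rosa26-Lmo2+Sca1-Cre, and 15.9, 12.7, 14.0 and 11.9 CPM in WT. H1 means were 1.54, 2.36 and 3.79 times, H2A means 2.55, 3.77 and 3.67 times, H2B means 1.62, 1.75 and 2.03 times and H4 means 1.96, 4.66 and 4.02 times the WT mean in the same 3 models. Without Rosa26-Lmo2+Sca1-Cre replicate 2 the H1 mean of that model was 2.22 times the WT mean, and without Rosa26-Lmo2+Mb1-Cre replicate 2 the remaining library of that model was at 1.52 times for H1, 2.49 times for H2A and 3.99 times for H3. At least 1 tumour library lay within the WT range in the H1, H2A and H2B sums. Sca1-Lmo2 replicate 2 lay below all WT libraries in the H1 sum and also in the H2B sum, at 60.1 CPM against 70.9 to 103 CPM. The Rosa26-Lmo2+Aid-Cre library lay below them in the H1 sum. In the H4 sum Sca1-Lmo2 replicate 2, at 21.3 CPM, lay below all WT libraries, which had 25.6 to 37.0 CPM, and the other 9 tumour libraries lay above them. H3 made up 15.7 ± 0.64% (SD, n = 4) of the members' CPM in Sca1-Lmo2, 13.7 ± 2.07% (SD, n = 2) in Rosa26-Lmo2+Mb1-Cre, 12.7 ± 2.54% (SD, n = 3) in Rosa26-Lmo2+Sca1-Cre and 7.40 ± 0.81% (SD, n = 4) in WT. H2B made up 14.7 to 19.4% of the members' CPM on average in the models and 28.2 ± 2.72% (SD, n = 4) in WT.

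The clusters differed too. Hist1 members, the main cluster on chromosome 13, were at 3.54, 5.30, 2.27 and 5.16 times the WT mean in Sca1-Lmo2, Rosa26-Lmo2+Mb1-Cre, Rosa26-Lmo2+Aid-Cre and Rosa26-Lmo2+Sca1-Cre. Hist2 members were at 0.839, 1.03, 0.735 and 1.28 times, and the Hist3 members were at 0.456, 0.307, 0.338 and 0.520 times the WT mean in the same order of models. The Hist4 member was at 1.10, 1.86, 1.27 and 1.31 times.

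Sca1-Lmo2 against WT asks how thymic tumours started by Lmo2 under the stem cell promoter differ from healthy thymus. Of 66 members tested, 43 rose, 2 fell and 21 were not called, while 12.1% of all genes tested were called higher and 10.2% lower. The median log2 fold change was 2.09 over the members, from -1.93 to 3.74, and 0.05 over all genes. The 43 included 4 of 5 H1, 12 of 18 H2A, 13 of 19 H2B, 10 of 12 H3 and 4 of 12 H4 members. Hist1 members gave 42 of the 43. Both members that fell encode H2B, Hist2h2be and Hist3h2ba. Of the 32 tested members not treated as uncertain, 21 were called (19 higher). Among all 66 members, 45 were called with every library. This count fell to 27 or 29 when Sca1-Lmo2 replicate 3 or 4 was left out, and to 23 or 22 when WT replicate 3 or 4 was. Calls over all genes, 3815 with every library, were 2361 or 3840 and 2449 or 2223 in the same fits.

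Rosa26-Lmo2+Mb1-Cre against WT asks the same for tumours of mice in which Lmo2 was switched on in early B cells. Here 52 members rose, 3 fell and 11 were not called, while 19.7% of all genes were called higher and 15.4% lower. The median log2 fold change was 2.52 over the members, from -2.49 to 4.12, and -0.01 over all genes. All 12 tested H4 members rose, with a class median of 2.71, as did 10 of 12 H3 members, with a class median of 3.06. The 3 that fell were Hist2h2be, Hist3h2ba and Hist3h2a. Without Rosa26-Lmo2+Mb1-Cre replicate 2, whose members summed to 1388 CPM, the members' median log2 fold change was 2.06. Most calls were then lost, a larger part of those on members than of those on all genes. Without replicate 1 the median was 2.95 and most calls on members stayed. In both cases the lone library left was assumed to vary like the other groups.

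Rosa26-Lmo2+Sca1-Cre against WT concerns mice that kept Lmo2 on from the stem cell to the T cell. There 49 members rose, 1 fell and 16 were not called, while 16.5% of all genes were called higher and 10.4% lower. The median log2 fold change was 2.58 over the members, from -1.28 to 4.57, and 0.06 over all genes. Called members included 4 of 5 H1, 13 of 18 H2A, 12 of 19 H2B, 10 of 12 H3 and 10 of 12 H4. The member that fell was Hist3h2a. The 3 comparisons share the 4 WT libraries, so their counts are not independent of each other.

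**Figure D2:**
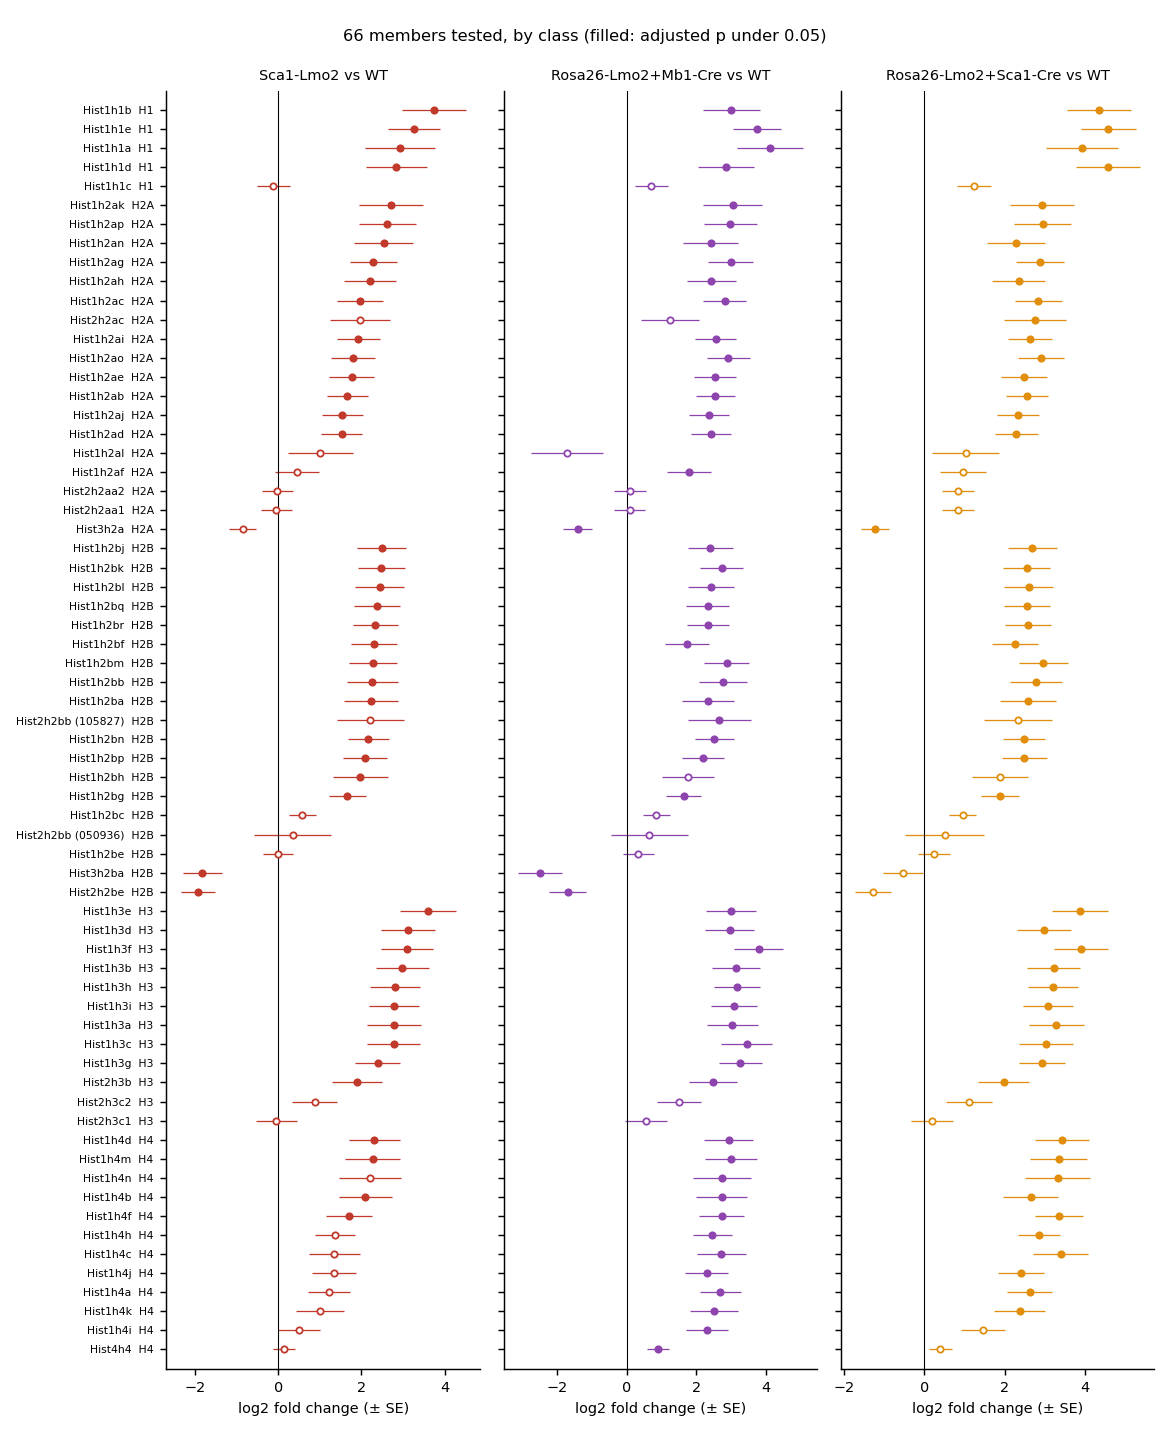
Log2 fold change against WT of each of the 66 members tested in Sca1-Lmo2, Rosa26-Lmo2+Mb1-Cre tumours and Rosa26-Lmo2+Sca1-Cre, with bars for the SE, the members grouped by class and filled points marking calls. Most points lie to the right of 0, with called falls only for Hist2h2be, Hist3h2ba and Hist3h2a. The 2 lines named Hist2h2bb are told apart by the last digits of their Ensembl identifiers.

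H1 linker histones bind the DNA between nucleosomes and compact chromatin. Hist1h1e (ENSMUSG00000051627, chr13:23621755-23622502), which encodes H1.4, had 1.56, 0.912, 4.01 and 1.60 CPM in Sca1-Lmo2, 1.85 and 3.78 CPM in Rosa26-Lmo2+Mb1-Cre, 1.36 CPM in Rosa26-Lmo2+Aid-Cre, 4.01, 8.95 and 2.04 CPM in Rosa26-Lmo2+Sca1-Cre, and 0.269, 0.258, 0.114 and 0.189 CPM in WT. Each tumour library was higher than each WT library, in which the gene had between 6 and 13 counts. Relative to WT, the log2 fold change reached 3.27 ± 0.63 (SE, adjusted p = 0.00494, edgeR) in Sca1-Lmo2, 3.75 ± 0.69 (adjusted p = 0.00313) in Rosa26-Lmo2+Mb1-Cre and 4.57 ± 0.68 (adjusted p = 0.00271) in Rosa26-Lmo2+Sca1-Cre. Hist1h1b (ENSMUSG00000058773, chr13:21779883-21780625), which encodes H1.5, had 1.17, 0.831, 3.58 and 5.33 CPM in Sca1-Lmo2, 1.30 and 1.98 CPM in Rosa26-Lmo2+Mb1-Cre, 0.521 CPM in Rosa26-Lmo2+Aid-Cre, 2.74, 7.47 and 2.22 CPM in Rosa26-Lmo2+Sca1-Cre, and 0.145, 0.357, 0.246 and 0.0568 CPM in WT. Here too no tumour library overlapped WT, and the log2 fold change of 3.74 ± 0.76 in Sca1-Lmo2 (adjusted p = 0.0065, edgeR) was the largest of any member in that comparison. Hist1h1d and Hist1h1a, which encode H1.3 and H1.1, also rose in all 3 comparisons, by 2.84 and 2.93 in Sca1-Lmo2, 2.87 and 4.12 in Rosa26-Lmo2+Mb1-Cre and 4.56 and 3.92 in Rosa26-Lmo2+Sca1-Cre on the log2 scale.

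Hist1h1c, which encodes H1.2 and is known to be polyadenylated in differentiated cells, stood apart from the other H1 genes. It had 9.85, 5.65, 14.9 and 16.1 CPM in Sca1-Lmo2, 14.9 and 26.4 CPM in Rosa26-Lmo2+Mb1-Cre, 7.36 CPM in Rosa26-Lmo2+Aid-Cre, 18.9, 51.9 and 17.6 CPM in Rosa26-Lmo2+Sca1-Cre, and 14.5, 11.3, 13.2 and 11.3 CPM in WT. The 2 Rosa26-Lmo2+Mb1-Cre and 3 Rosa26-Lmo2+Sca1-Cre libraries lay above all WT libraries, whereas Sca1-Lmo2 libraries lay on both sides of WT and the Rosa26-Lmo2+Aid-Cre library lay below. The log2 fold changes were -0.11 ± 0.40 (SE, adjusted p = 0.867, edgeR), 0.72 ± 0.48 (adjusted p = 0.257) and 1.23 ± 0.43 (adjusted p = 0.0503) in Sca1-Lmo2, Rosa26-Lmo2+Mb1-Cre tumours and Rosa26-Lmo2+Sca1-Cre, and none was called. In WT it was the H1 member with the most CPM.

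**Figure D3:**
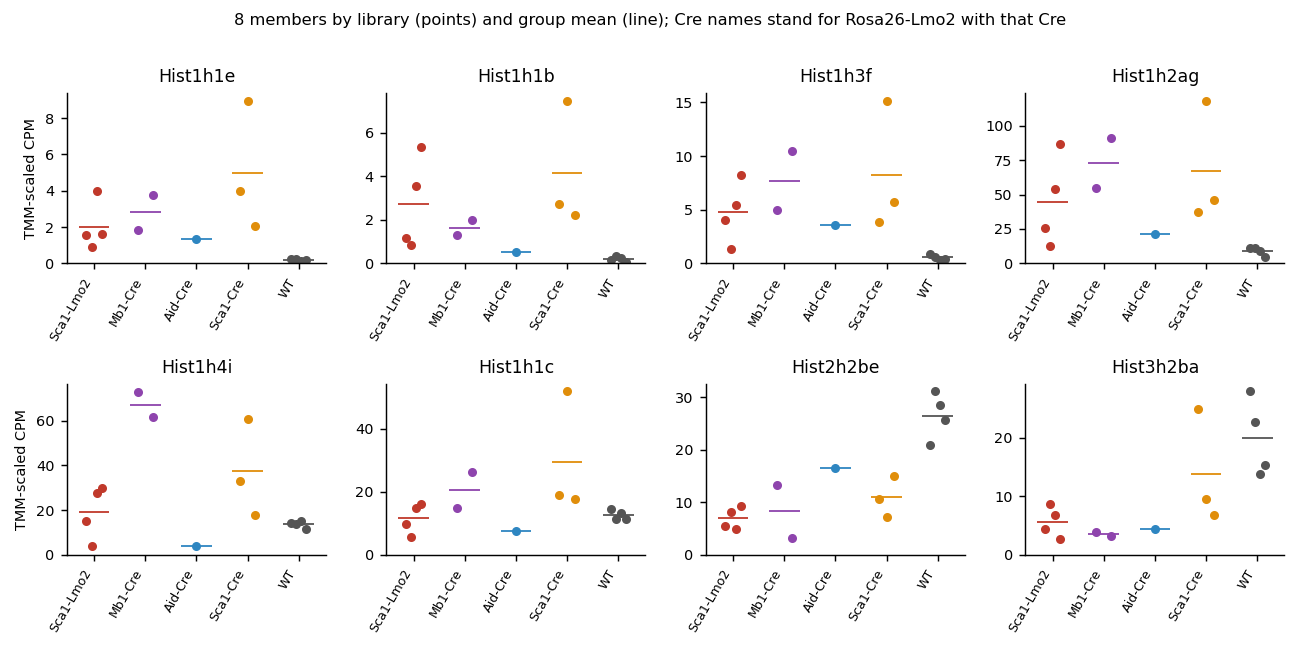
TMM-scaled CPM of 8 members in each library, by group, with each point a library and each line the group mean. Hist1h1e, Hist1h1b and Hist1h3f lie higher in every tumour library than in any WT library, Hist1h4i and Hist1h1c overlap WT, and Hist2h2be lies lower in every tumour library.

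H3 genes encode a core histone with a long and heavily modified tail. Hist1h3f had 4.06, 1.30, 5.48 and 8.26 CPM in Sca1-Lmo2, 4.96 and 10.5 CPM in Rosa26-Lmo2+Mb1-Cre, 3.56 CPM in Rosa26-Lmo2+Aid-Cre, 3.90, 15.2 and 5.74 CPM in Rosa26-Lmo2+Sca1-Cre, and 0.869, 0.556, 0.360 and 0.435 CPM in WT. All tumour libraries were above all WT libraries, and the lowest was Sca1-Lmo2 replicate 2. It rose by 3.10 ± 0.63 (SE, adjusted p = 0.00624, edgeR), 3.79 ± 0.70 (adjusted p = 0.00308) and 3.89 ± 0.67 (adjusted p = 0.00467) on the log2 scale in Sca1-Lmo2, Rosa26-Lmo2+Mb1-Cre tumours and Rosa26-Lmo2+Sca1-Cre. Hist1h3e rose by 3.61, 3.002 and 3.86, Hist1h3d by 3.12, 2.96 and 2.97, and Hist1h3c by 2.77, 3.45 and 3.02 in the same comparisons. Of the 3 Hist2 H3 genes, Hist2h3b rose by 1.89, 2.48 and 1.97 (adjusted p = 0.0405, 0.0165 and 0.0378, edgeR). Hist2h3c1 changed by -0.05, 0.56 and 0.19 and Hist2h3c2 by 0.87, 1.52 and 1.10, and neither was called. All 3 were treated as uncertain, because their transcripts share sequence or another gene overlaps. Their reads may be split or shared, so the calls do not show that these genes behave differently.

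H2A genes took the largest share of the members' CPM, and most of their reads may be shared between near-identical copies. Hist1h2ag, which had the highest mean level per kilobase of listed span of any member, had 25.5, 12.5, 54.3 and 86.5 CPM in Sca1-Lmo2, 54.8 and 90.8 CPM in Rosa26-Lmo2+Mb1-Cre, 21.3 CPM in Rosa26-Lmo2+Aid-Cre, 37.4, 118 and 46.0 CPM in Rosa26-Lmo2+Sca1-Cre, and 11.3, 11.3, 9.02 and 4.92 CPM in WT. Every tumour library was above every WT library. It rose by 2.29 ± 0.57 (SE, adjusted p = 0.0147, edgeR), 2.99 ± 0.64 (adjusted p = 0.00583) and 2.88 ± 0.60 (adjusted p = 0.00927) on the log2 scale in Sca1-Lmo2, Rosa26-Lmo2+Mb1-Cre tumours and Rosa26-Lmo2+Sca1-Cre. Hist1h2an reached 107 CPM in Sca1-Lmo2 replicate 4, against 8.75, 10.1, 6.27 and 3.22 CPM in WT. The near-identical Hist2 copies Hist2h2aa1 and Hist2h2aa2 changed by -0.05 and -0.02 in Sca1-Lmo2, 0.09 and 0.10 in Rosa26-Lmo2+Mb1-Cre and 0.83 and 0.84 in Rosa26-Lmo2+Sca1-Cre, none of them called. Their neighbour Hist2h2ac rose in Rosa26-Lmo2+Sca1-Cre, by 2.75 (adjusted p = 0.0242), and was not called at 1.96 in Sca1-Lmo2 (adjusted p = 0.0717) or 1.25 in Rosa26-Lmo2+Mb1-Cre (adjusted p = 0.26).

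H2B genes held both rises and falls. Hist1h2bj had 7.50, 4.01, 17.5 and 35.1 CPM in Sca1-Lmo2, 11.4 and 19.0 CPM in Rosa26-Lmo2+Mb1-Cre, 6.02 CPM in Rosa26-Lmo2+Aid-Cre, 14.2, 23.7 and 17.3 CPM in Rosa26-Lmo2+Sca1-Cre, and 4.14, 3.30, 2.24 and 1.78 CPM in WT. Only Sca1-Lmo2 replicate 2 reached into the WT range. It rose by 2.49 ± 0.58 (SE, adjusted p = 0.0115, edgeR), 2.41 (adjusted p = 0.0149) and 2.68 (adjusted p = 0.0118) on the log2 scale in Sca1-Lmo2, Rosa26-Lmo2+Mb1-Cre tumours and Rosa26-Lmo2+Sca1-Cre. Hist1h2bc, another member known to be polyadenylated, changed by 0.58, 0.86 and 0.95 and was not called. Hist2h2bb is listed under 2 identifiers. ENSMUSG00000105827 changed by 2.21, 2.67 and 2.34 and was called only in Rosa26-Lmo2+Mb1-Cre (adjusted p = 0.0396), and ENSMUSG00000050936, which GENCODE M21 annotates as a lincRNA, changed by 0.35, 0.65 and 0.51 and was not called.

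The called falls lay outside the Hist1 cluster. Hist2h2be (ENSMUSG00000068854, chr3:96221119-96223738), an H2B gene known to give polyadenylated mRNA, had 5.44, 8.19, 4.87 and 9.34 CPM in Sca1-Lmo2, 13.3 and 3.09 CPM in Rosa26-Lmo2+Mb1-Cre, 16.4 CPM in Rosa26-Lmo2+Aid-Cre, 10.5, 7.25 and 15.0 CPM in Rosa26-Lmo2+Sca1-Cre, and 20.9, 31.1, 28.4 and 25.6 CPM in WT. All 10 tumour libraries were below all 4 WT libraries. Relative to WT, it changed by -1.93 ± 0.42 (SE, adjusted p = 0.00802, edgeR) in Sca1-Lmo2, -1.69 ± 0.53 (adjusted p = 0.0291) in Rosa26-Lmo2+Mb1-Cre and -1.28 ± 0.45 (adjusted p = 0.0522) in Rosa26-Lmo2+Sca1-Cre, the last of them not called. The fall in Sca1-Lmo2 was called in each of the 19 alternatives run.

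Hist3h2ba (ENSMUSG00000056895, chr11:58948920-58949533), the H2B gene of the Hist3 cluster, had 4.42, 8.73, 6.86 and 2.62 CPM in Sca1-Lmo2, 3.91 and 3.21 CPM in Rosa26-Lmo2+Mb1-Cre, 4.38 CPM in Rosa26-Lmo2+Aid-Cre, 25.0, 9.50 and 6.79 CPM in Rosa26-Lmo2+Sca1-Cre, and 28.0, 22.8, 13.8 and 15.4 CPM in WT. Rosa26-Lmo2+Sca1-Cre replicate 1 lay within the WT range and the other tumour libraries lay below it. It fell by 1.82 on the log2 scale in Sca1-Lmo2 (adjusted p = 0.0173, edgeR) and by 2.49 in Rosa26-Lmo2+Mb1-Cre (adjusted p = 0.0118), and the change of -0.54 in Rosa26-Lmo2+Sca1-Cre was not called (adjusted p = 0.424). The call in Sca1-Lmo2 was lost without Sca1-Lmo2 replicate 1 and without WT replicate 1. Its neighbour Hist3h2a, an H2A gene whose span overlaps Trim17 and is uncertain for that reason, had 21.7, 18.2, 28.7 and 11.7 CPM in Sca1-Lmo2, 17.4 and 9.95 CPM in Rosa26-Lmo2+Mb1-Cre, 14.6 CPM in Rosa26-Lmo2+Aid-Cre, 22.5, 12.0 and 11.9 CPM in Rosa26-Lmo2+Sca1-Cre, and 42.6, 40.7, 29.9 and 32.1 CPM in WT. All tumour libraries were below WT, with calls at -1.41 in Rosa26-Lmo2+Mb1-Cre tumours (adjusted p = 0.0202) and -1.23 in Rosa26-Lmo2+Sca1-Cre (adjusted p = 0.0243) and none in Sca1-Lmo2 at -0.86 (adjusted p = 0.0685).

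H4 genes had the lowest class median in Sca1-Lmo2, at 1.35 on the log2 scale, against 2.71 in Rosa26-Lmo2+Mb1-Cre tumours and 2.75 in Rosa26-Lmo2+Sca1-Cre. Hist1h4i had 15.0, 3.77, 27.6 and 29.9 CPM in Sca1-Lmo2, 73.1 and 61.6 CPM in Rosa26-Lmo2+Mb1-Cre, 3.65 CPM in Rosa26-Lmo2+Aid-Cre, 33.2, 60.8 and 17.9 CPM in Rosa26-Lmo2+Sca1-Cre, and 14.1, 13.6, 15.0 and 11.4 CPM in WT. Sca1-Lmo2 replicate 2 and the Rosa26-Lmo2+Aid-Cre library were below WT, and both Rosa26-Lmo2+Mb1-Cre libraries were the highest. It rose by 2.31 ± 0.60 (SE, adjusted p = 0.0123, edgeR) on the log2 scale in Rosa26-Lmo2+Mb1-Cre, and was not called at 0.49 ± 0.51 (adjusted p = 0.514) in Sca1-Lmo2 or 1.46 ± 0.55 (adjusted p = 0.0637) in Rosa26-Lmo2+Sca1-Cre. Hist4h4 on chromosome 6 had a narrow range, with 6.53, 6.99, 8.85 and 10.8 CPM in Sca1-Lmo2, 11.3 and 16.6 CPM in Rosa26-Lmo2+Mb1-Cre, 9.55 CPM in Rosa26-Lmo2+Aid-Cre, 8.19, 12.2 and 9.13 CPM in Rosa26-Lmo2+Sca1-Cre, and 8.90, 8.38, 5.97 and 6.83 CPM in WT. It was called only in Rosa26-Lmo2+Mb1-Cre, at 0.89 ± 0.32 (SE, adjusted p = 0.0443).

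Across the members, 18 of 66 had every tumour library above every WT library, against 4.95% of all genes tested, and 2 of 66 (Hist2h2be and Hist3h2a) had every tumour library below, against 7.19%. The 18 all lie in the Hist1 cluster and comprised 8 H3, 5 H2B, 3 H1 and 2 H2A genes. The extremes fell on few libraries. The highest library was Rosa26-Lmo2+Sca1-Cre replicate 2 for 34 of the 66 members and Sca1-Lmo2 replicate 4 for 18, and the lowest was WT replicate 4 for 42. Among tumour libraries Sca1-Lmo2 replicate 2 was the lowest for 54 members.

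The listed length of a gene separated the members as well. In 58 members the listed span was under 1000 bases, about the length of the coding region with short ends, and their sum was 3.19, 4.79, 2.04 and 4.72 times the WT mean in Sca1-Lmo2, Rosa26-Lmo2+Mb1-Cre, Rosa26-Lmo2+Aid-Cre and Rosa26-Lmo2+Sca1-Cre. In the 13 with a span of 1000 bases or more, which include Hist3h2a, Hist2h2be, Hist1h1c, Hist1h2bc and Hist4h4, it was 1.01, 1.19, 0.817 and 1.30 times. Hist3h2a and Hist2h2be, which were lower in every tumour library than in any WT library, are part of that sum. Several of the 13 lie outside the Hist1 cluster, so span and cluster were not told apart. Of members tested, 40 of 54 with a short span and 3 of 12 with a long span rose in Sca1-Lmo2, 48 and 4 in Rosa26-Lmo2+Mb1-Cre, and 46 and 3 in Rosa26-Lmo2+Sca1-Cre. Long spans may also collect reads of introns and neighbours, so a long span is not a measure of polyadenylation. Of the 4 tested members known to give polyadenylated mRNA, Hist1h2ac rose in all 3 comparisons, Hist2h2be fell in Sca1-Lmo2 and Rosa26-Lmo2+Mb1-Cre, and Hist1h1c and Hist1h2bc were not called. Hist1h2bd, known for the same, was not analysed here.

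**Figure D4:**
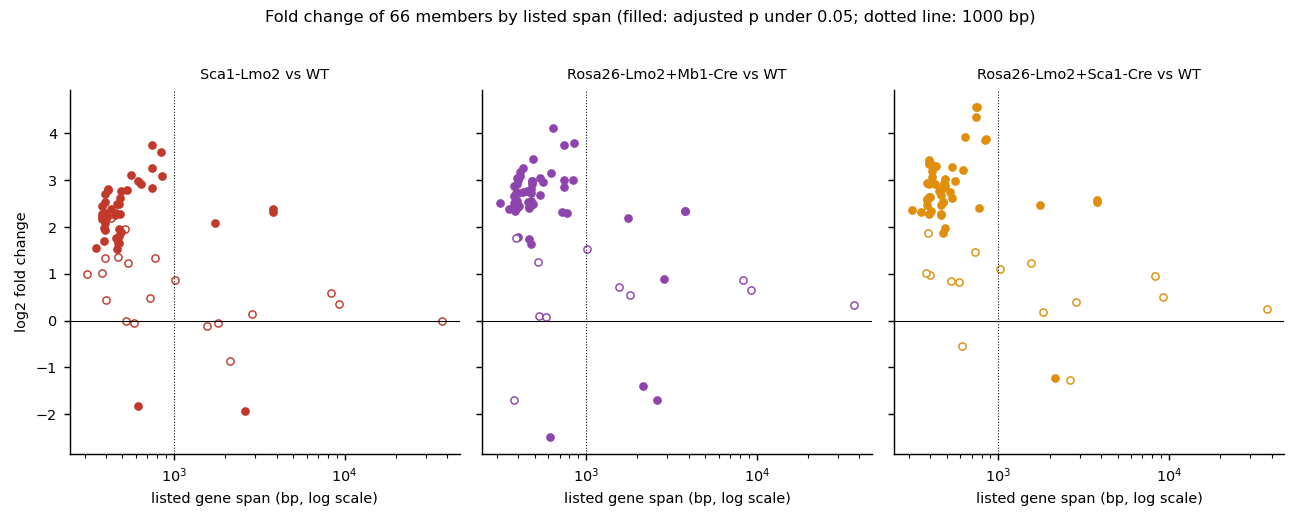
Log2 fold change against WT of each member tested, plotted against its listed span in bases on a log axis, for Sca1-Lmo2, Rosa26-Lmo2+Mb1-Cre tumours and Rosa26-Lmo2+Sca1-Cre. Filled points are called. Most members left of the dotted line at 1000 bases lie above 0. Those to its right have medians of 0.24, 0.79 and 0.73 in the same order of models, and run from -1.93 to 2.58.

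Between models no member was called by edgeR. For Sca1-Lmo2 against Rosa26-Lmo2+Sca1-Cre, the models in which Lmo2 starts in stem or progenitor cells, 0 of 66 members were called, while 3.59% of all genes were called higher and 6.3% lower, 9.89% in all. At an unadjusted p under 0.05 there were 9 members, while 30.8% of all genes tested had such a p. DESeq2 called 5 members and 3603 of all genes, and limma-voom 0 and 1070. Of the 66, 61 were lower and 5 higher in Sca1-Lmo2, with a median log2 fold change of -0.52 and a median SE of 0.58. Hist1h1c had -1.34 ± 0.43 (SE, adjusted p = 0.0641, edgeR) and Hist1h4c had -2.05 ± 0.65 (adjusted p = 0.0647). Both were among the 5 of DESeq2, with Hist3h2ba, Hist1h4h and Hist1h4f. For Rosa26-Lmo2+Mb1-Cre against Rosa26-Lmo2+Sca1-Cre 0 of 66 were called, while 0.123% of all genes were called higher and 0.0878% lower, 0.211% in all. An unadjusted p under 0.05 was found for 2 members and for 17.6% of all genes. DESeq2 called Hist3h2ba and limma-voom 0. The median log2 fold change was -0.07 with a median SE of 0.70, and a missing call does not show that the models act alike.

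The RNA content of the libraries differed between the groups too. Other RNAs without a poly(A) tail give a view of how much untailed RNA a library holds. The 24 listed summed to 105 to 250 CPM in Sca1-Lmo2 and 214 and 254 CPM in Rosa26-Lmo2+Mb1-Cre. They summed to 422 CPM in Rosa26-Lmo2+Aid-Cre, 235 to 607 CPM in Rosa26-Lmo2+Sca1-Cre and 449 to 701 CPM in WT. Malat1 and Neat1 averaged 280 and 276 CPM of the WT mean of 572 CPM. Over the 8 tested, median log2 fold changes were 0.49, 2.48 and 3.16 in the 3 comparisons with WT. The 5 named next are made by RNA polymerase III. Rmrp, Rpph1, Rn7sk, Rn7s1 and Rn7s2 summed to 17.5, 9.16, 15.4 and 27.6 CPM in Sca1-Lmo2, 30.1 and 134 CPM in Rosa26-Lmo2+Mb1-Cre, 23.8 CPM in Rosa26-Lmo2+Aid-Cre, 141, 435 and 111 CPM in Rosa26-Lmo2+Sca1-Cre, and 31.5, 7.62, 3.58 and 4.34 CPM in WT. Rosa26-Lmo2+Sca1-Cre replicate 2 and Rosa26-Lmo2+Mb1-Cre replicate 2, the highest in the histone sum, ranked 1 and 3 here, but Sca1-Lmo2 replicates 4 and 3, which were next in the histone sum, ranked 7 and 10. WT replicate 1, at 31.5 CPM, was above all 4 Sca1-Lmo2 libraries in these RNAs and below 3 of them in the histone sum. In a fit with the log2 of this sum as a covariate, chosen after seeing the data, 24 members were called in Sca1-Lmo2 tumours, 0 in Rosa26-Lmo2+Mb1-Cre tumours (6 at an unadjusted p under 0.05) and 0 in Rosa26-Lmo2+Sca1-Cre (0 at an unadjusted p under 0.05), by edgeR. Calls over all genes were 3123, 462 and 4 in that fit, against 3815, 6001 and 4589 without the covariate. The members' median log2 fold changes were 1.34, 0.99 and 0.23. Every Rosa26-Lmo2+Sca1-Cre library had a higher sum of these RNAs than any WT library. In that comparison the fit therefore cannot tell the covariate from the group, and its loss of calls does not test the members' rise. Reads placed on 4 nuclear copies of mitochondrial sequence, whose origin was not tested, took 2.81% of counts on average in Sca1-Lmo2 tumours, 4.50% in Rosa26-Lmo2+Mb1-Cre, 6.13% in Rosa26-Lmo2+Aid-Cre, 7.22% in Rosa26-Lmo2+Sca1-Cre and 2.996% in WT. With the share of these reads as a covariate 46, 25 and 1 members were called in the 3 comparisons with WT, the last being Hist1h4f. Calls over all genes were then 4363, 3739 and 711. The part of RNA content in the members' levels was not tested.

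**Figure D5:**
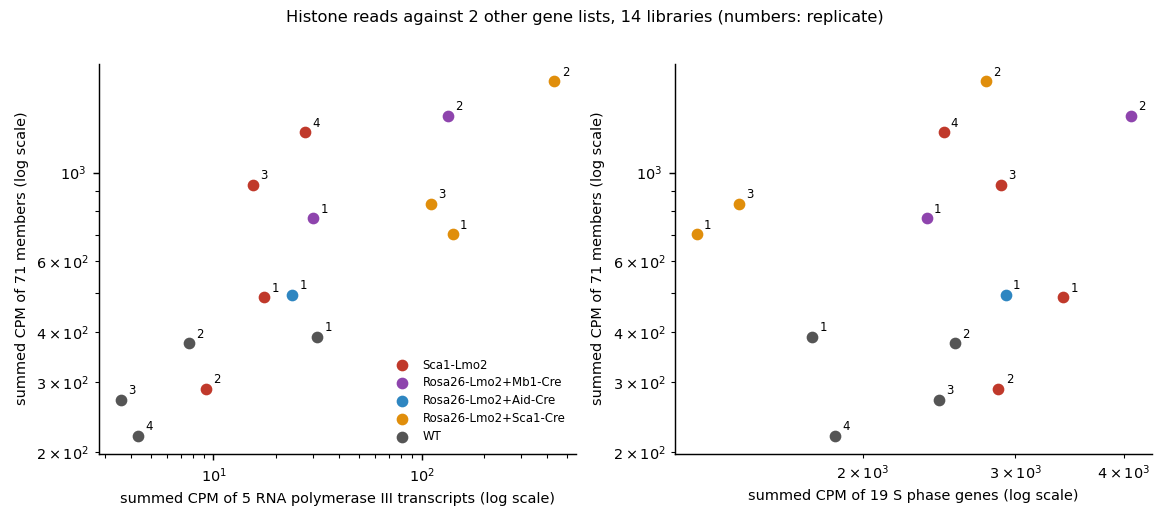
Summed CPM of the members against the summed CPM of 5 RNA polymerase III RNAs and against that of 19 S phase genes, each point a library, on log axes, coloured by group and numbered by replicate. The Rosa26-Lmo2+Sca1-Cre libraries lie at 111 to 435 CPM for the polymerase III RNAs, and replicates 1 and 3 lie lowest of all for the S phase genes, at 1288 and 1440 CPM.

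S phase genes, whose mRNA is polyadenylated, put the libraries in another order. The 19 genes summed to 3405, 2868, 2884 and 2480 CPM in Sca1-Lmo2, 2372 and 4073 CPM in Rosa26-Lmo2+Mb1-Cre, 2925 CPM in Rosa26-Lmo2+Aid-Cre, 1288, 2775 and 1440 CPM in Rosa26-Lmo2+Sca1-Cre, and 1748, 2559, 2451 and 1857 CPM in WT. Rosa26-Lmo2+Sca1-Cre replicates 1 and 3, with 701 and 837 CPM of histone members, were the lowest of all 14. Of the 19 genes, 5 rose and 1 fell in Sca1-Lmo2, 6 rose and 1 fell in Rosa26-Lmo2+Mb1-Cre, and 1 rose and 2 fell in Rosa26-Lmo2+Sca1-Cre. Of all genes tested, 12.1% rose and 10.2% fell in Sca1-Lmo2, 19.7% and 15.4% in Rosa26-Lmo2+Mb1-Cre tumours, and 16.5% and 10.4% in Rosa26-Lmo2+Sca1-Cre. Uhrf1, which keeps DNA methylation through replication, rose by 1.56 (adjusted p = 0.00416, edgeR) in Sca1-Lmo2, Tk1, which makes thymidine monophosphate, by 1.08 (adjusted p = 0.0201) and 2.14 (adjusted p = 0.00168) in Sca1-Lmo2 and Rosa26-Lmo2+Mb1-Cre, and Rfc4, of the clamp loader, by 2.33 (adjusted p = 0.00212) and 1.07 (adjusted p = 0.0442) in Rosa26-Lmo2+Mb1-Cre tumours and Rosa26-Lmo2+Sca1-Cre. Gins2, of the replicative helicase, fell in all 3 comparisons, by 0.82, 1.01 and 0.82.

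The machinery that makes, binds or degrades histone mRNA ends was represented by 17 genes. Of these, 2 rose in Sca1-Lmo2, where 12.1% of all genes rose, and 4 rose and 2 fell in Rosa26-Lmo2+Mb1-Cre, where 19.7% of all genes rose and 15.4% fell. In Rosa26-Lmo2+Sca1-Cre, where 26.9% of all genes were called, 0 were called by edgeR. There 4 had an unadjusted p under 0.05, as did 42.3% of all genes. Slbp, which binds the stem-loop, changed by 0.28 ± 0.30 (SE, adjusted p = 0.527), 0.54 (adjusted p = 0.251) and -0.43 (adjusted p = 0.323) in the 3 comparisons, and Npat, the activator of histone genes, by 0.14, -0.42 and -0.47, neither called. Cpsf3, the endonuclease, rose by 0.54 in Sca1-Lmo2 (adjusted p = 0.0269) and 1.17 in Rosa26-Lmo2+Mb1-Cre (adjusted p = 0.00164). Snrpb, a core protein of small nuclear RNPs, rose by 0.73 and 0.92 in the same models. Zcchc6, which in human cells adds uridines to RNA ends for decay, fell by 1.51 in Rosa26-Lmo2+Mb1-Cre (adjusted p = 0.00284), and Upf1, a helicase of mRNA decay, by 0.55 (adjusted p = 0.0338).

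Histone chaperones, which carry new histones to DNA, rose in 6 of 17 genes in Sca1-Lmo2, rose in 7 and fell in 2 in Rosa26-Lmo2+Mb1-Cre, and rose in 1 and fell in 1 in Rosa26-Lmo2+Sca1-Cre. Over all genes 12.1% rose in Sca1-Lmo2, 19.7% rose and 15.4% fell in Rosa26-Lmo2+Mb1-Cre tumours, and 16.5% rose and 10.4% fell in Rosa26-Lmo2+Sca1-Cre. Chaf1b, of the chromatin assembly factor that deposits H3 and H4 behind the fork, rose in all 3, by 1.16 (adjusted p = 0.00847, edgeR), 2.26 (adjusted p = 0.000965) and 0.87 (adjusted p = 0.0334). Chaf1a rose by 0.97 and 0.94 in Sca1-Lmo2 and Rosa26-Lmo2+Mb1-Cre and changed by -0.08 in Rosa26-Lmo2+Sca1-Cre. Ubn1, of the HIRA complex, fell by 1.24 in Rosa26-Lmo2+Mb1-Cre tumours and 0.75 in Rosa26-Lmo2+Sca1-Cre.

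Replication-independent variants, which come from polyadenylated mRNA, gave 1 rise of 10 tested in Sca1-Lmo2, 2 rises and 1 fall in Rosa26-Lmo2+Mb1-Cre and 1 rise in Rosa26-Lmo2+Sca1-Cre. The all-gene shares were 12.1% higher and 10.2% lower in Sca1-Lmo2, 19.7% and 15.4% in Rosa26-Lmo2+Mb1-Cre tumours, and 16.5% and 10.4% in Rosa26-Lmo2+Sca1-Cre. H1f0, the H1.0 linker variant of cells that have stopped dividing, had 211, 55.4, 216 and 486 CPM in Sca1-Lmo2, 119 and 161 CPM in Rosa26-Lmo2+Mb1-Cre, 159 CPM in Rosa26-Lmo2+Aid-Cre, 74.2, 13.9 and 78.4 CPM in Rosa26-Lmo2+Sca1-Cre, and 17.0, 21.1, 19.7 and 14.5 CPM in WT. Its lowest library of the 14, Rosa26-Lmo2+Sca1-Cre replicate 2, had the highest histone sum. H1f0 rose by 3.74 ± 0.64 (SE, adjusted p = 0.00287, edgeR) on the log2 scale in Sca1-Lmo2 and by 2.95 ± 0.68 (adjusted p = 0.00746) in Rosa26-Lmo2+Mb1-Cre, and was not called at 1.62 (adjusted p = 0.0675) in Rosa26-Lmo2+Sca1-Cre. H2afz, the H2A.Z variant, rose by 1.08 and H2afy, macroH2A, fell by 1.15 in Rosa26-Lmo2+Mb1-Cre.

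Markers of other cells moved with some groups. Myeloid markers summed to 103 to 156 CPM in Sca1-Lmo2, 239 and 903 CPM in Rosa26-Lmo2+Mb1-Cre, 398 CPM in Rosa26-Lmo2+Aid-Cre, 364, 534 and 1462 CPM in Rosa26-Lmo2+Sca1-Cre and 104 to 182 CPM in WT. Of the 10, 0 were called in Sca1-Lmo2 by edgeR (2 at an unadjusted p under 0.05), 5 rose in Rosa26-Lmo2+Mb1-Cre and 6 rose in Rosa26-Lmo2+Sca1-Cre. For these and the marker counts below, the all-gene shares were 12.1% higher and 10.2% lower in Sca1-Lmo2. They were 19.7% and 15.4% in Rosa26-Lmo2+Mb1-Cre tumours, and 16.5% and 10.4% in Rosa26-Lmo2+Sca1-Cre. B cell markers fell in 2, 5 and 1 of 8, and thymic epithelium markers in 6, 1 and 3 of 7 tested, in Sca1-Lmo2, Rosa26-Lmo2+Mb1-Cre tumours and Rosa26-Lmo2+Sca1-Cre. The 8 B cell markers summed to 218, 36.5, 224 and 9.03 CPM in Sca1-Lmo2 and 33.4 and 11.6 CPM in Rosa26-Lmo2+Mb1-Cre. They summed to 73.3 CPM in Rosa26-Lmo2+Aid-Cre, 158, 48.9 and 37.9 CPM in Rosa26-Lmo2+Sca1-Cre and 57.0 to 99.1 CPM in WT. Sca1-Lmo2 replicates 1 and 3 and Rosa26-Lmo2+Sca1-Cre replicate 1 thus lay above all WT libraries. Foxn1, the defining factor of thymic epithelium, had no count in any Sca1-Lmo2 library or in Rosa26-Lmo2+Aid-Cre. Of 7 tested markers of stroma and endothelium, 2 rose in Sca1-Lmo2, 4 rose and 1 fell in Rosa26-Lmo2+Mb1-Cre, and 6 rose and 1 fell in Rosa26-Lmo2+Sca1-Cre, with median log2 fold changes of 0.39, 2.41 and 3.58. The marker that fell was Pecam1, which blood cells also express. With Pecam1 included the 11 listed markers summed to 126 to 197 CPM in Sca1-Lmo2, 91.2 and 100.3 CPM in Rosa26-Lmo2+Mb1-Cre, 119 CPM in Rosa26-Lmo2+Aid-Cre, 123 to 182 CPM in Rosa26-Lmo2+Sca1-Cre and 118 to 127 CPM in WT. The 8 erythroid markers summed to 977 to 2483 CPM in Sca1-Lmo2, 2316 and 1786 CPM in Rosa26-Lmo2+Mb1-Cre, 675 CPM in Rosa26-Lmo2+Aid-Cre, 1068, 6991 and 1027 CPM in Rosa26-Lmo2+Sca1-Cre and 284 to 2426 CPM in WT. The library with 6991 CPM, Rosa26-Lmo2+Sca1-Cre replicate 2, also had the highest histone sum. Of 6 erythroid markers tested, 1 rose in each comparison. The part of these cells in the members' levels was not tested.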

How the data were processed

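Libraries came from a TruSeq kit without strand information. The authors sequenced read pairs of 100 bases, used bcl2fastq (no version given), aligned with TopHat2 2.1.0 to mm10/GRCm38, and counted reads with bamsignals over the whole listed span of each gene, introns included. The table as deposited has raw counts. How reads that map to several places were treated is not given in the sources used here.

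Repeated lines were dropped (46948 to 46946). Counts were analysed with edgeR 4.0.16 in R 4.3.3 (quasi-likelihood test, two-sided, TMM, all 14 libraries with group means, at least 1 CPM in at least 3 libraries, threshold 0.05). The single Rosa26-Lmo2+Aid-Cre library entered the fit and no test. SE is the log2 fold change over the root of F. The procedure was tested on simulated data. Alternatives were DESeq2 1.42.0, limma-voom (limma 3.58.1), no TMM, no filter, only the groups compared, a gene span offset, a replicate block and leaving out each library. The members and gene lists were chosen with earlier results of these data known. Named were Lmo2, Slbp, Npat, the 3 highest members by mean CPM per class, the 5 largest called rises and falls per comparison, Hist2 to Hist4 and polyadenylated members, and the 3 list genes of smallest adjusted p per comparison with WT, of which a selection is described. Other genes named in the text were chosen after their values were seen. Reads carried no molecular identifiers.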

Additional observations from a re-analysis of the deposited data

Results flagged for a closer look

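Each group of 4 libraries was checked for a library far from the other 3. Chance flags about 1 in 20 groups, and 6 of 280 checks stood out, none of them for a single member. WT replicate 1 had 31.5 CPM of the 5 RNA polymerase III RNAs, against 7.62 CPM in the nearest WT library, and 7.72 CPM of Rn7sk alone, against 1.73 CPM. Sca1-Lmo2 replicate 2, the lowest tumour library in histone CPM, had 84.8 CPM of Neat1, against 13.8 CPM in the nearest. In Sca1-Lmo2 replicate 4 the 10 highest members took 48.4% of the members' CPM, against 40.1% in the nearest. Sca1-Lmo2 replicate 3 had 411 CPM of Snrpb, against 295 CPM, and WT replicate 2 had 143 CPM of Upf1, against 122 CPM.

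The effects against WT of 2 models differed, by the edgeR test of the difference between the models, for 9 named genes that are no members. In Sca1-Lmo2 against Rosa26-Lmo2+Sca1-Cre the log2 fold changes were -1.70 for H2afj, -4.14 for H1fx, 1.04 for Chaf1a, 0.97 for Mms22l, 0.97 for Cdk2, 1.38 for Uhrf1, -2.62 for Rpph1 and -5.54 for Rn7sk. In Rosa26-Lmo2+Mb1-Cre against Rosa26-Lmo2+Sca1-Cre it was 1.10 for Cpsf3 (adjusted p = 0.0489). The difference for Cpsf3 was called in 3 of 15 alternatives (adjusted p from 5.83e-05 to 0.489). Of the other 8 genes, H2afj, H1fx, Chaf1a, Mms22l, Cdk2 and Uhrf1 were not called with only the groups compared, with the replicate block or with either covariate.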

How the results depend on the processing

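Counts of members called are given in the order Sca1-Lmo2, Rosa26-Lmo2+Mb1-Cre tumours and Rosa26-Lmo2+Sca1-Cre against WT, where edgeR gave 45, 55 and 50. Leaving out each library in turn gave 22 to 52, 3 to 51 and 39 to 54. Among the 32 tested members not treated as uncertain 21, 26 and 23 were called. Limma-voom called 26 in Sca1-Lmo2, and merging Sca1-Lmo2 replicates 1 and 3 gave 35. Over the named genes, leaving out a library kept 1803 calls or missing calls, ended 178 and added 32. Without TMM 40, 48 and 48 were called, and the median of all genes moved by -0.19, -0.45 and -0.39. The called genes that were higher then made up 44.1, 34.0 and 35.8% of all calls, against 54.3, 56.0 and 61.5% with TMM. In Sca1-Lmo2 13 of the 45 members were called in every alternative, against 0 of 55 in Rosa26-Lmo2+Mb1-Cre tumours and 0 of 50 in Rosa26-Lmo2+Sca1-Cre. With RNA polymerase III transcripts as a covariate 24, 0 and 0 were called (45, 6 and 0 at an unadjusted p under 0.05), and with mitochondrial copies 25 in Rosa26-Lmo2+Mb1-Cre tumours and 1 in Rosa26-Lmo2+Sca1-Cre. With the polymerase III covariate 7 named genes changed sign in Rosa26-Lmo2+Sca1-Cre: Hist1h2ah -0.62, Hist1h3c -0.14, Hist1h4b -0.14, Hist1h1a -0.77, Hist2h2ac -0.73, Hist2h3b -0.27 and Rfc4 -0.22. None of the 7 was called in that fit (adjusted p from 0.865 to 0.984, edgeR), so no reversal is shown. The polymerase III sum was higher in every Rosa26-Lmo2+Sca1-Cre library than in any WT library, and the fit cannot tell it from the group there. The cause was not tested. For Sca1-Lmo2 against Rosa26-Lmo2+Sca1-Cre, with 0 by edgeR, DESeq2 called 5, no filter 1, the gene span offset 1, and leaving out a library 0 to 1. For Rosa26-Lmo2+Mb1-Cre against Rosa26-Lmo2+Sca1-Cre DESeq2 called 1 and leaving out a library 0 to 0.

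Replicate numbers are shared between groups and were not taken to pair the samples. Of 16 same-numbered pairs, 4 had a correlation of deviations above 0.1 (from -0.40 to 0.17), and the 46 other pairs ran from -0.39 to 0.39. Deviations within a small group depend on each other, so these values cannot show whether a pairing or batch exists. With the replicate block 17, 41 and 33 members were called against WT, and with the block and the gene span offset 27 in Sca1-Lmo2 and 36 in Rosa26-Lmo2+Mb1-Cre. Without a block these counts were 45, 55 and 50.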

Other observations

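Malat1 and Neat1, nuclear RNAs whose main 3′ ends are not made by ordinary polyadenylation, went the other way from the histone members. Malat1 averaged 119 CPM in Sca1-Lmo2, 82.7 CPM in Rosa26-Lmo2+Mb1-Cre, 132 CPM in Rosa26-Lmo2+Sca1-Cre and 280 CPM in WT, and fell by 1.23, 1.76 and 1.09 on the log2 scale (adjusted p = 0.00664, 0.00337 and 0.0166, edgeR). Neat1 fell by 3.31 in Sca1-Lmo2 (adjusted p = 0.0127) and by 2.84 in Rosa26-Lmo2+Sca1-Cre (adjusted p = 0.0327), and its -2.19 in Rosa26-Lmo2+Mb1-Cre was not called (adjusted p = 0.103). Rpph1, the RNA of RNase P, rose by 2.36, 5.24 and 4.98 in Sca1-Lmo2, Rosa26-Lmo2+Mb1-Cre tumours and Rosa26-Lmo2+Sca1-Cre. These 3 RNAs were chosen after their values were seen, and the part of untailed RNA in the members' levels was not tested.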
